A study of Mus musculus with 20 samples.

Results

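The 38 genes described here work in DNA replication and mitosis and were taken as a named list, 25 that act in mitosis and 13 in replication. They are 38 of 48969 genes with counted exon pieces, and all 38 passed the filter on low counts. RNA was measured by polyA-selected sequencing of hearts from wild-type C57BL/6 mice aged 12 weeks. The groups were 5 high-fat females, 5 chow females, 5 high-fat males and 4 chow males, and chow male 4, counted per gene instead of per exon piece, was left out. The labels call the diets PA and Chow, and PA is taken to be the high-fat diet because the series names no other diet. The labels do not say that each sample is a separate animal, so a p-value sets a difference against a spread that may be technical. The comparisons ask how diet changed the heart in each sex, and whether the sexes differed.

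A dividing cell copies its DNA in S phase and separates the copies in mitosis. Replication genes such as the Mcm helicase subunits are switched on by E2F factors on the way into S phase. Mitotic cyclins, kinases and spindle proteins follow later, through a complex of MuvB proteins with B-Myb and FoxM1 that binds promoters holding a CHR element and CCAAT boxes. Adult mouse cardiomyocytes have largely left the cell cycle, and most dividing cells of the adult heart are endothelial, stromal or immune. In whole-heart RNA, fewer cells of a type and less RNA per cell cannot be told apart.

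The 19 libraries compared held 57805110 to 85794067 counts. Levels are in CPM, with TMM-adjusted library sizes scaled to a common total, and a read that spans several exon pieces may have been counted in each piece. High-fat females 4 and 5 stood apart from the other 17 libraries over all genes. Their scores on the first principal component, which held 43.3% of the variance, were 104 and 146, against -22.6 to -2.80 in the other 17. Their log2 levels climbed with transcript GC content by 0.63 and 0.92 per 10 percentage points, against -0.08 to 0.15 elsewhere. The nuclear RNA Malat1 had 117 and 63.8 CPM in them, against 1130 to 1531 CPM elsewhere. The Y-linked Kdm5d was at 0 CPM in all 10 female libraries and at 17.96 to 22.9 CPM in males. The RNA Xist had 17.9 and 10.6 CPM in high-fat females 4 and 5. It had 113.8 to 143.5 CPM in the other females and 0.14 to 0.82 CPM in males. Each comparison is therefore given with all libraries and without these 2, and the 2 libraries are shown apart. The 10 cardiomyocyte markers summed to 102001 to 120919 CPM in high-fat females, 113756 to 121602 CPM in chow females, 105005 to 111830 CPM in high-fat males and 114643 to 122564 CPM in chow males.

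**Figure D1:**
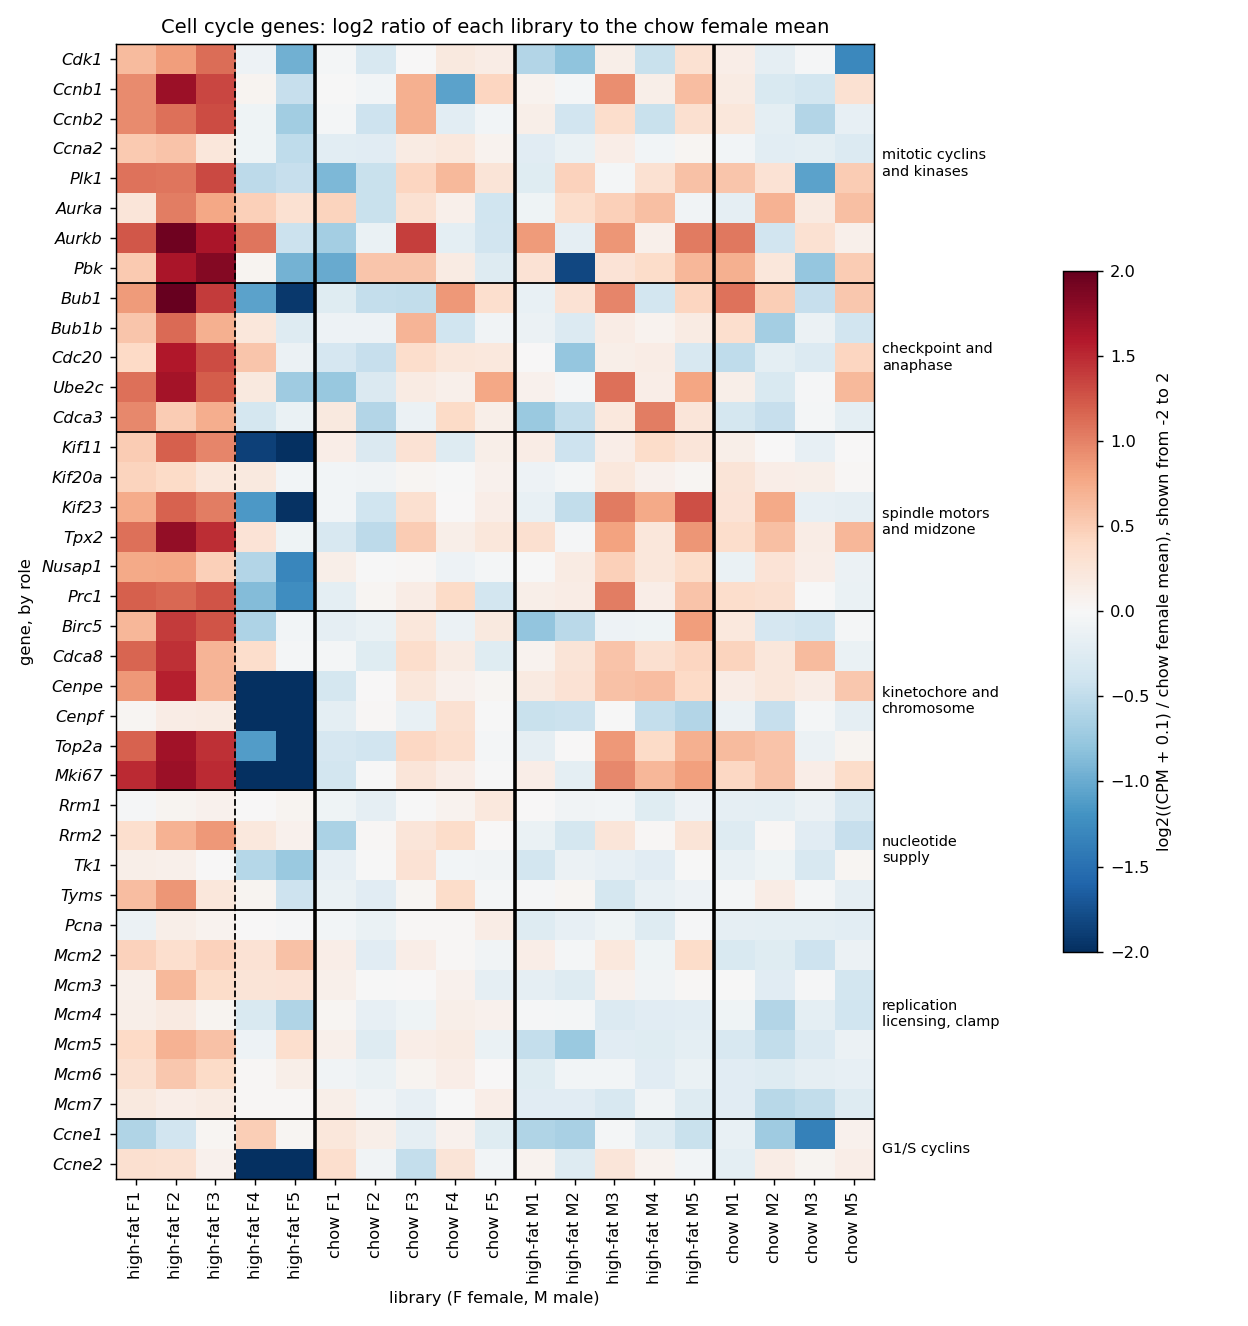
Log2 ratio of each member's level to the chow female mean (colour, shown from -2 to 2) in each of the 19 libraries (columns), with genes in rows ordered by role and a dashed line setting high-fat females 4 and 5 apart. The columns of high-fat females 1 to 3 are red over most mitosis genes, while females 4 and 5 are blue in Mki67, Cenpe, Cenpf, Kif11, Top2a and Ccne2.

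In hearts of high-fat females 1 to 3, 19 of 25 mitosis genes lay above every chow female in each of the 3 libraries, beside 6.23% of all genes, with Mki67 at 3.02 times and Top2a at 2.71 times the chow female mean, while in females 4 and 5 both of these were below every chow female. The median log2 ratio of the 25 mitosis genes to the chow female mean was 0.86, 1.19 and 1.21 in high-fat females 1 to 3, -0.09 and -0.69 in females 4 and 5, and -0.24 to 0.29 in chow females. With all 19 libraries, edgeR's quasi-likelihood test called 1 of 38 members higher in high-fat females, beside 1.67% of all genes called higher, and 0 lower, beside 0.864% called lower. That gene was Mcm2. At an unadjusted p under 0.05 there were 14 of 38 members, beside 3390 of 18051 genes. Without high-fat females 4 and 5, 23 of 38 members rose and 0 fell, beside 2.46% of all genes called higher and 2.68% called lower. The median log2 change of the members was 0.44 with all libraries and 0.79 without females 4 and 5, where that of all genes tested was -0.02 and 0.00.

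Of the 23 that rose without females 4 and 5, 18 were among the 25 mitosis genes and 5 among the 13 replication genes. The median log2 change was 1.18 for the mitosis genes, within 0.11 to 1.59, and 0.22 for the replication genes, within -0.33 to 0.63. In 24 members each of high-fat females 1 to 3 lay above every chow female, beside 6.23% of all genes, and in 0 members below, beside 6.44%. With all 5 high-fat females this held for 2 members, Mcm2 and Mcm3, beside 2.63% of all genes. The 23 calls rested on 3 libraries: leaving out female 2 as well gave 8 calls and leaving out female 3 gave 13. Over all genes, leaving out 1 further library gave 285 to 1072 calls in place of 939. That count moved by more than 1.5-fold only without female 2 or female 3. On each gene's largest exon piece alone 22 members could be tested and 2 were called. Over all genes the alternative settings, the largest piece among them, gave 242 to 1636 calls.

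**Figure D2:**
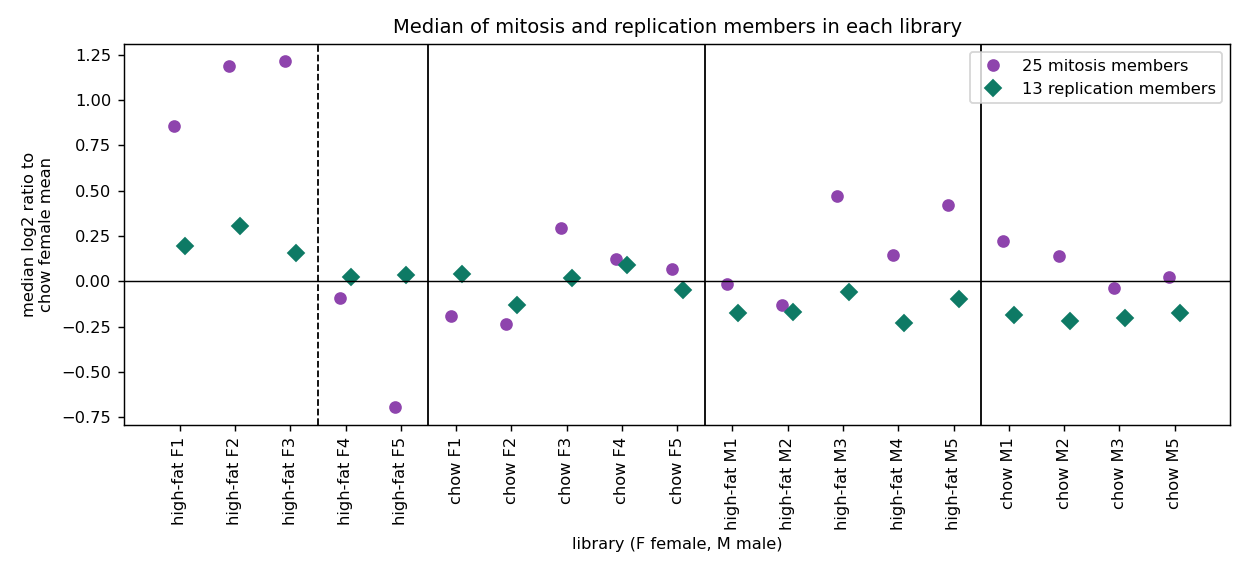
Median log2 ratio to the chow female mean (vertical axis) of 25 mitosis genes (circles) and 13 replication genes (diamonds) in each library (horizontal axis), with a dashed line setting high-fat females 4 and 5 apart. The mitosis medians of high-fat females 1 to 3 are 0.86 to 1.21, above the highest other library at 0.47, and the replication medians of all libraries lie within -0.23 to 0.30.

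The mitotic cyclins and kinases drive entry into mitosis: Cdk1 is the kinase, Ccnb1 and Ccnb2 (cyclins B1 and B2) and Ccna2 (cyclin A2) are its partners, and Plk1, Aurka, Aurkb and Pbk are kinases that act beside it. Ccnb1 had 1.14, 1.998, 1.51, 0.564 and 0.364 CPM in high-fat females 1 to 5, against 0.534, 0.517, 0.948, 0.205 and 0.759 CPM in chow females. Ccnb2 had 1.68, 1.87, 2.19, 0.771 and 0.470 CPM in high-fat females 1 to 5, against 0.801, 0.594, 1.42, 0.695 and 0.785 CPM in chow females. Females 1 to 3 lay above all chow females in both cyclins, and females 4 and 5 within or below the chow range. Ccnb1 rose by 1.38 ± 0.33 on the log2 scale (SE, adjusted p = 0.0193) without females 4 and 5, against 0.91 ± 0.41 (adjusted p = 0.242) with them. For Ccnb2 the change was 1.15 ± 0.25 (adjusted p = 0.0136) without them and 0.70 ± 0.35 (adjusted p = 0.283) with them. Reads of Ccnb1 may be shared with 4 near-identical pseudogenes.

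Of the other kinases, Aurkb, the kinase of the chromosomal passenger complex, rose by 1.57 ± 0.43 without females 4 and 5 (adjusted p = 0.0397). Its call was lost in 7 of the fits that left out 1 further library, and chow female 3 had 1.37 CPM, against 0.253 to 0.413 CPM in the other chow females. Cdk1 had 2.35, 2.70, 3.31, 1.38 and 0.713 CPM in high-fat females, against 1.43, 1.16, 1.49, 1.71 and 1.65 CPM in chow females. Its change of 0.90 ± 0.26 without females 4 and 5 missed the threshold (adjusted p = 0.0532). Plk1, Pbk and Aurka were not called either, at 1.18 ± 0.36, 1.53 ± 0.51 and 0.74 ± 0.27.

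For Ccna2, 76.2% of counts came from pieces that overlap Exosc9 on the opposite strand, and strand-specific counting is stated nowhere. Over all its pieces Ccna2 rose by 0.44 ± 0.12 without females 4 and 5 (adjusted p = 0.033). On pieces that overlap no other gene, Ccna2 had 2.04, 2.86, 2.17, 0.729 and 0.667 CPM in high-fat females 1 to 5, against 0.450, 0.633, 1.33, 0.821 and 0.892 CPM in chow females. There high-fat females 1 to 3 lay above every chow female, and the change was 1.52 ± 0.27 (adjusted p = 0.00294). With females 4 and 5 it was 1.04 ± 0.37 (adjusted p = 0.137).

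Bub1 and Bub1b belong to the spindle checkpoint, Cdc20 and the ubiquitin-conjugating enzyme Ube2c serve the anaphase-promoting complex, and Cdca3 promotes mitotic entry. Cdc20 had 1.84, 4.34, 3.52, 2.06 and 1.26 CPM in high-fat females 1 to 5, against 1.07, 0.969, 1.78, 1.61 and 1.60 CPM in chow females. Ube2c had 1.68, 2.54, 1.83, 0.853 and 0.409 CPM in high-fat females 1 to 5, against 0.394, 0.581, 0.835, 0.790 and 1.318 CPM in chow females. Each of females 1 to 3 was above every chow female, female 1 by a narrow margin in Cdc20, where female 4 was above them too. Without females 4 and 5 Cdc20 rose by 1.21 ± 0.27 (adjusted p = 0.0137) and Ube2c by 1.36 ± 0.32 (adjusted p = 0.0178). With them the changes were 0.89 ± 0.30 (adjusted p = 0.118) and 0.90 ± 0.41 (adjusted p = 0.241). Bub1 rose by 1.59 ± 0.40 and Bub1b by 0.80 ± 0.22 without females 4 and 5, while Cdca3 was not called at 0.79 ± 0.33.

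The spindle group holds the motors Kif11, Kif20a and Kif23, the microtubule-nucleating protein Tpx2, the microtubule binder Nusap1 and the midzone bundler Prc1. Tpx2 had 3.12, 4.98, 4.06, 1.72 and 1.319 CPM in high-fat females 1 to 5, against 1.10, 0.943, 2.04, 1.53 and 1.65 CPM in chow females. Prc1 had 7.34, 7.10, 7.64, 1.68 and 1.27 CPM in high-fat females 1 to 5, against 2.73, 3.26, 3.50, 4.14 and 2.41 CPM in chow females. Prc1 in females 1 to 3 was above every other library of both sexes, and in females 4 and 5 it was below every chow female. Prc1 rose by 1.20 ± 0.19 (adjusted p = 0.00137) and Tpx2 by 1.48 ± 0.23 (adjusted p = 0.0013) without females 4 and 5. With all libraries the changes were 0.64 ± 0.39 for Prc1 and 1.07 ± 0.31 for Tpx2 (adjusted p = 0.372 and 0.0756). Kif11 rose by 0.94 ± 0.18 and Nusap1 by 0.71 ± 0.14, while Kif23 missed the threshold at 1.01 ± 0.31 (adjusted p = 0.0631).

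Kif20a, like Ccna2, shares most of its counted pieces with an opposite-strand gene: 64.0% of its counts overlapped Cdc23. Its change was 0.35 ± 0.09 over all pieces without females 4 and 5 (adjusted p = 0.0224). On its own pieces Kif20a had 3.15, 3.04, 2.64, 1.79 and 1.85 CPM in high-fat females 1 to 5, against 1.48, 1.40, 1.74, 1.56 and 1.64 CPM in chow females. All 5 high-fat females lay above every chow female there, and the change was called in both readings, at 0.91 ± 0.16 without females 4 and 5 (adjusted p = 0.00219) and 0.67 ± 0.17 with them (adjusted p = 0.0475). On its largest piece alone the change was -0.046, with no call.

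At the kinetochore and chromosome, Birc5 (survivin) and Cdca8 (borealin) belong to the chromosomal passenger complex, Cenpe and Cenpf bind the kinetochore, Top2a untangles DNA and Mki67 encodes the proliferation marker Ki-67. Mki67 had 6.58, 7.70, 6.63, 0.124 and 0.197 CPM in high-fat females 1 to 5, against 1.76, 2.27, 2.73, 2.53 and 2.26 CPM in chow females. Top2a had 8.21, 11.7, 10.1, 1.60 and 0.682 CPM in high-fat females 1 to 5, against 2.81, 2.71, 4.83, 4.57 and 3.50 CPM in chow females. In both genes females 1 to 3 lay above every other library, and females 4 and 5 below every other library. Mki67 rose by 1.59 ± 0.19 without females 4 and 5 (adjusted p = 0.000143) and Top2a by 1.44 ± 0.23 (adjusted p = 0.00137). With all 5 the changes were 0.88 ± 0.66 and 0.81 ± 0.51, neither called (adjusted p = 0.474 and 0.388).

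Birc5, Cdca8 and Cenpe rose by 1.27 ± 0.31, 1.19 ± 0.20 and 1.16 ± 0.19 without females 4 and 5. Cenpf was the exception in this group. It had 24.7, 26.5, 26.96, 4.43 and 2.38 CPM in high-fat females 1 to 5, against 20.9, 24.4, 21.7, 29.7 and 23.9 CPM in chow females. Females 1 to 3 overlapped the chow females, and the change was 0.11 ± 0.12 without females 4 and 5 (adjusted p = 0.67). Mki67, Top2a, Prc1, Tpx2, Cdca8, Cenpe, Nusap1 and Mcm6 kept their calls in every fit that left out 1 further library, and the other 15 of the 23 lost theirs when female 2 was left out as well. Opposite-strand genes overlapped pieces with 30.6% of the counts of Cdca8 and 19.3% of those of Prc1, and on the other pieces their changes were 1.54 ± 0.29 and 1.19 ± 0.21.

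**Figure D3:**
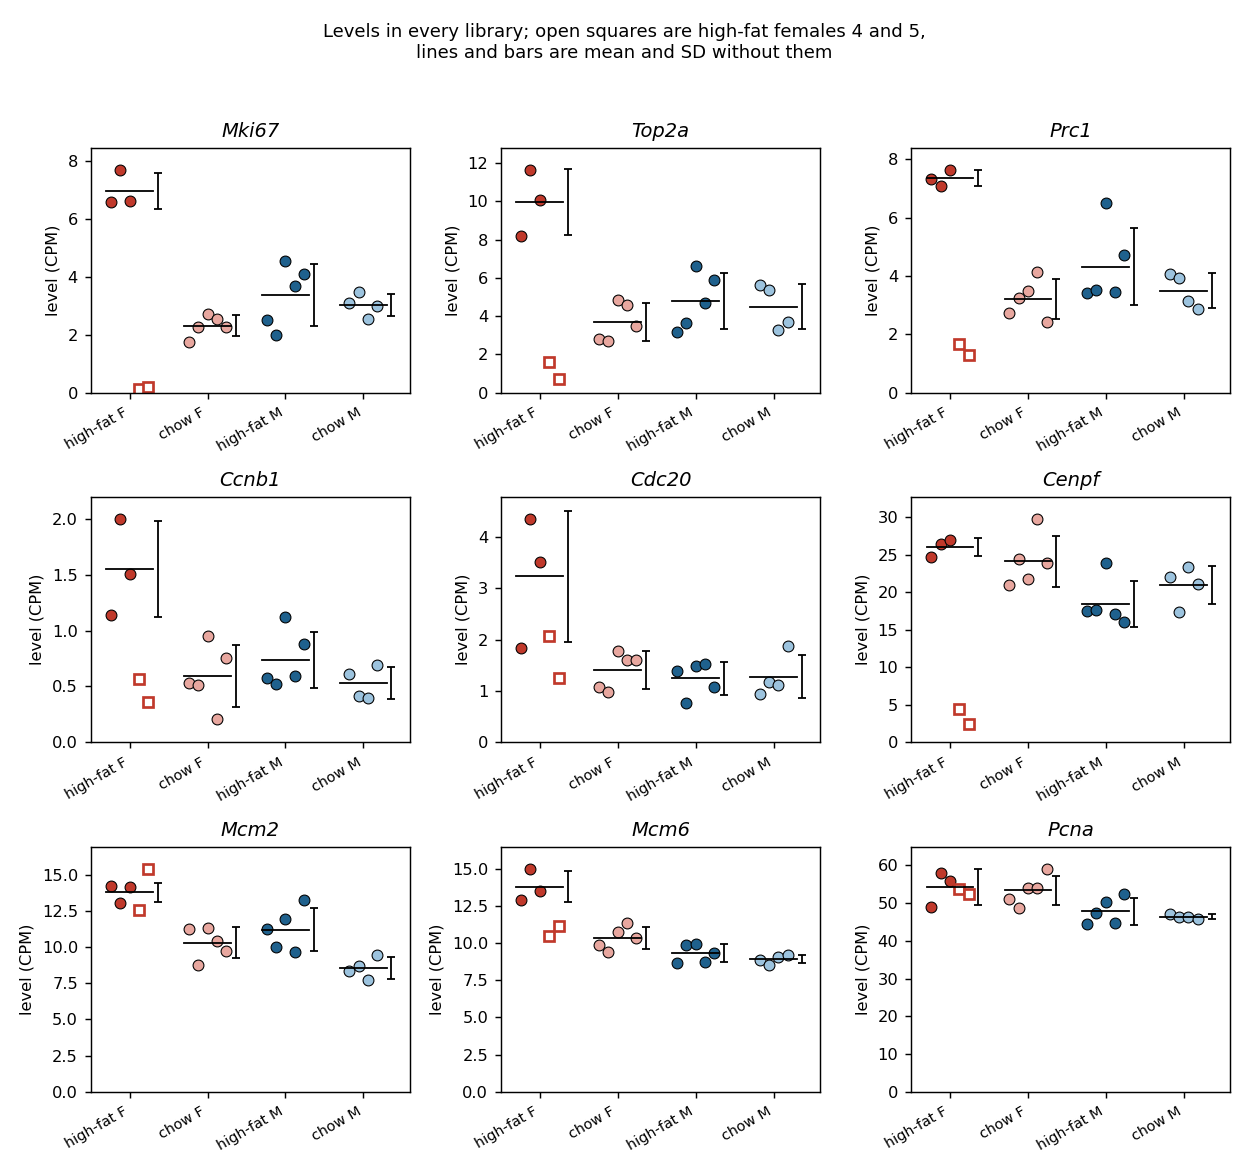
Level in CPM (vertical axes, from 0) of 9 members in every library by group (horizontal axes), with high-fat females 4 and 5 as open squares and the mean and SD of the filled points beside each group. Mki67, Top2a and Prc1 of high-fat females 1 to 3 lie above all other points, Mcm2 of all 5 high-fat females lies above every chow female, and the high-fat and chow groups of each sex overlap in Pcna.

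Nucleotide supply was represented by Rrm1 and Rrm2, the subunits of ribonucleotide reductase, Tk1 (thymidine kinase) and Tyms (thymidylate synthase). Tyms had 4.19, 5.08, 3.16, 2.81 and 2.001 CPM in high-fat females 1 to 5, against 2.46, 2.29, 2.76, 3.52 and 2.61 CPM in chow females. Rrm2 had 3.52, 4.53, 5.14, 3.23 and 2.94 CPM in high-fat females 1 to 5, against 1.74, 2.83, 3.28, 3.59 and 2.78 CPM in chow females. The groups overlapped in both genes. Without females 4 and 5 Tyms rose by 0.60 ± 0.15 (adjusted p = 0.0226), and Rrm2 missed the threshold at 0.63 ± 0.19 (adjusted p = 0.0545). With all libraries Tyms was at 0.34 ± 0.19 and Rrm2 at 0.45 ± 0.19, neither called. Rrm1 and Tk1 were at 0.03 ± 0.08 and 0.07 ± 0.11 without females 4 and 5. Rrm2 and Pbk share near-identical stretches of 419 and 955 bases with pseudogenes, and that of Pbk had 0 counts. Tyms shares 677 bases with a pseudogene and at most 361 with other genes. Mki67 shares 216 bases with a pseudogene whose mean count was 0.053.

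Replication licensing rests on Mcm2 to Mcm7, which form the ring-shaped replicative helicase, of which 6 subunits were measured, and Pcna is the sliding clamp of the DNA polymerases. Mcm2 had 14.2, 13.04, 14.1, 12.6 and 15.4 CPM in high-fat females 1 to 5, against 11.3, 8.75, 11.3, 10.4 and 9.75 CPM in chow females. All 5 high-fat females, females 4 and 5 included, lay above every chow female. Mcm2 rose by 0.43 ± 0.09 with all libraries (adjusted p = 0.0218) and by 0.42 ± 0.10 without females 4 and 5 (adjusted p = 0.0213). Its call with all libraries was lost without chow female 4 or 5 and when only the female libraries were fitted (adjusted p = 0.136), and without females 4 and 5 it was lost when any of females 1 to 3 was left out.

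Mcm3 had 7.72, 11.3, 9.26, 8.63 and 8.73 CPM in high-fat females 1 to 5, against 7.72, 7.14, 7.18, 7.58 and 6.34 CPM in chow females. Mcm5 had 6.13, 7.52, 7.01, 4.31 and 5.87 CPM in high-fat females 1 to 5, against 4.95, 3.85, 5.09, 5.17 and 4.18 CPM in chow females. Mcm6 had 12.9, 14.98, 13.5, 10.5 and 11.2 CPM in high-fat females 1 to 5, against 9.85, 9.38, 10.8, 11.3 and 10.3 CPM in chow females. Mcm3 was above every chow female in all 5, though in female 1 only past the rounding of the values printed, in Mcm5 this held for all but female 4, and in Mcm6 for females 1 to 3. Without females 4 and 5 Mcm3 rose by 0.39 ± 0.11 (adjusted p = 0.0499), Mcm5 by 0.57 ± 0.13 (adjusted p = 0.0146) and Mcm6 by 0.41 ± 0.07 (adjusted p = 0.00318). With all libraries these changes were 0.35 ± 0.10, 0.41 ± 0.14 and 0.29 ± 0.09, none called.

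Mcm7 had 22.7, 21.8, 22.1, 20.2 and 20.1 CPM in high-fat females 1 to 5, against 21.6, 18.8, 17.6, 19.8 and 21.7 CPM in chow females. Its groups overlapped when females 4 and 5 were counted, and the change was not called at 0.15 ± 0.08 without them. Mcm4 and Pcna were not called at 0.11 ± 0.10 and 0.02 ± 0.07. Mcm7 and Pcna each have a near-identical pseudogene. The G1/S cyclins Ccne1 and Ccne2 (cyclins E1 and E2), partners of Cdk2 at the start of S phase, did not pass the test. Ccne1 had 0.720, 0.845, 1.18, 1.65 and 1.17 CPM in high-fat females 1 to 5, against 1.35, 1.24, 0.991, 1.22 and 0.945 CPM in chow females. Ccne2 had 4.51, 4.46, 3.82, 0.468 and 0.197 CPM in high-fat females 1 to 5, against 4.58, 3.42, 2.56, 4.31 and 3.43 CPM in chow females. In Ccne1 females 1 and 2 were below every chow female and female 4 above. In Ccne2, where 38.2% of counts overlapped Ints8, females 4 and 5 were below every other library, while females 1 to 3 lay among the chow females. The changes without females 4 and 5 were -0.33 ± 0.27 for Ccne1 and 0.22 ± 0.15 for Ccne2.

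**Figure D4:**
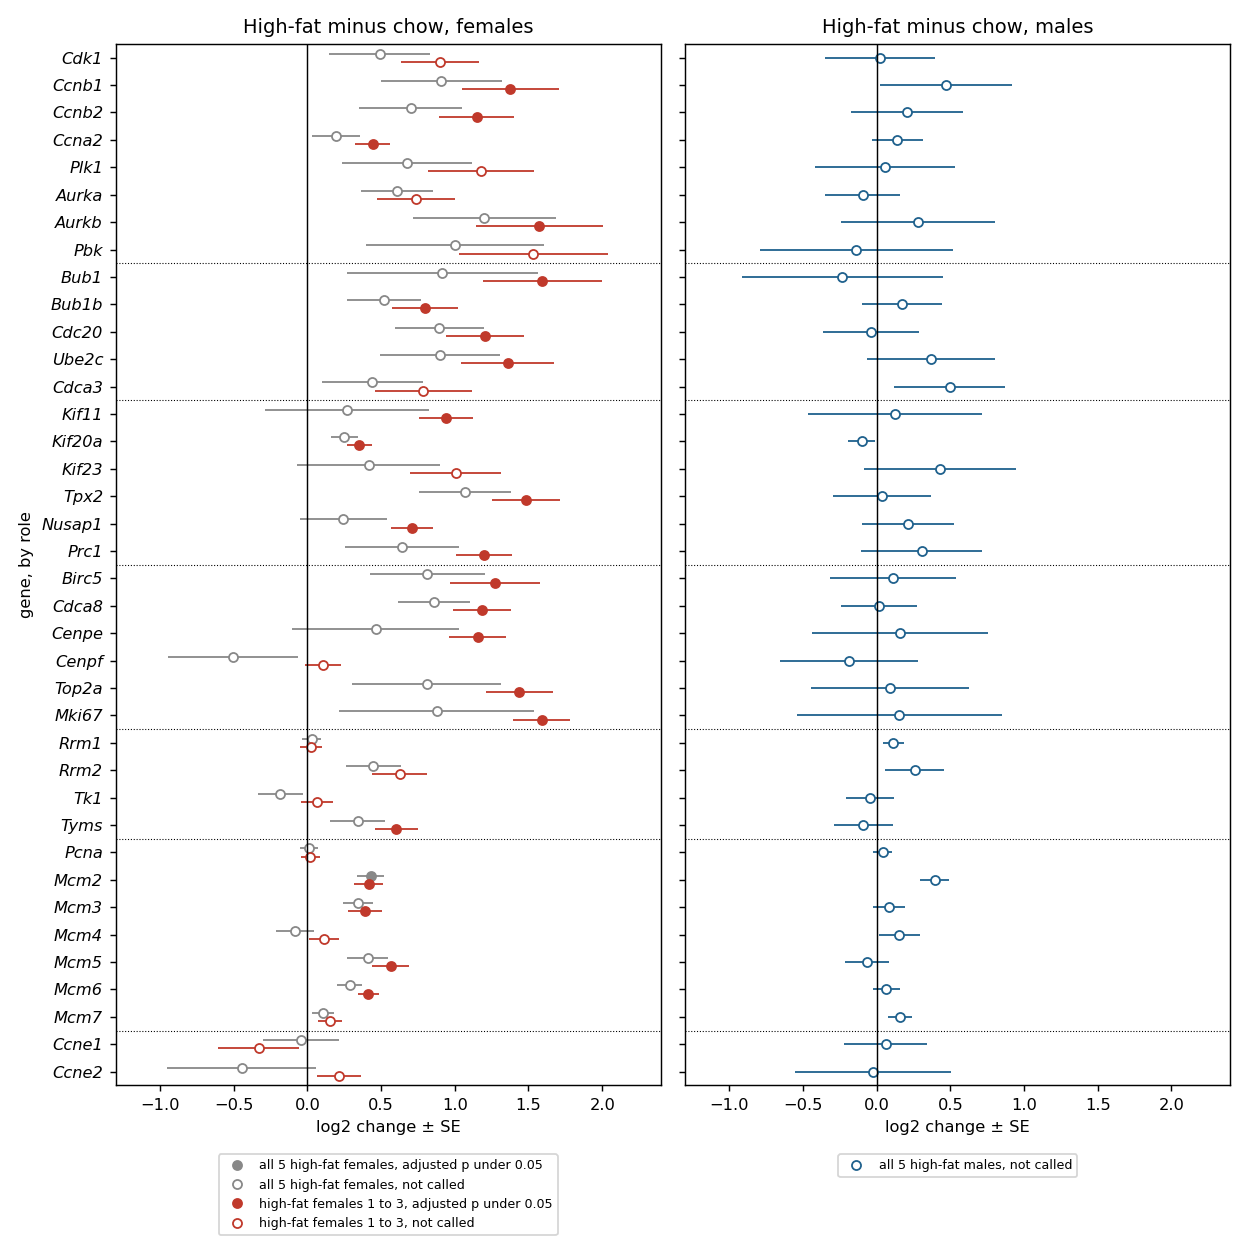
Log2 change with its SE (horizontal axes) of each member, by role (vertical axis), for high-fat minus chow in females (left; grey, all 5 high-fat females; red, females 1 to 3) and in males (right), with filled points for an adjusted p under 0.05. In females 23 red points and 1 grey point are filled, and in males none is.

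Per kilobase of counted exon, the members spanned a wide range of levels in chow females. The length is that of all counted pieces, which for Rrm1 was 11012 bases against 5475 in its longest transcript, and for Mcm4 3589 in both. The order below therefore depends on the annotation. Pcna was highest at 22.2 ± 1.62 CPM per kilobase (SD, n = 5), followed by Mcm7 at 4.68 ± 0.41. Mcm4 at 2.49 ± 0.21, Rrm1 at 2.22 ± 0.23 and Mcm6 at 2.21 ± 0.16 came next, and Rrm1 and Mcm6 did not differ beyond their spread. Mki67 ranked 30 of 38 at 0.23 ± 0.04, and Cenpe and Bub1 were lowest at 0.10 ± 0.02 and 0.10 ± 0.05. In high-fat females 1 to 3 Mki67 was at 0.69 ± 0.06 and Top2a at 1.12 ± 0.19 CPM per kilobase (SD, n = 3), against 0.23 ± 0.04 and 0.41 ± 0.11 in chow females.

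Promoters are shown for the 6 members first in order of p for the diet comparison in females 1 to 3 that RefSeq's promoter table holds, and these comprise 5 mitosis genes and 1 replication gene that rose there. Each window runs from 250 bases before to 50 bases after RefSeq's start site in the build GRCm38.p6, 5′ to 3′ on the gene's strand. Capitals mark exact matches on either strand to CCAAT (reverse ATTGG), to the CHR letters TTTGAA (reverse TTCAAA) and to the E2F-type letters TTCCCGC and TTGGCGC (reverses GCGGGAA and GCGCCAA). A reverse CCAAT can share letters with TTTGAA or with TTGGCGC, as it does with TTTGAA in Cdca8. RefSeq's start site for Cdca8 lies inside the interval that the files give the gene.
Mki67 (chr7:135716330-135716629, minus strand): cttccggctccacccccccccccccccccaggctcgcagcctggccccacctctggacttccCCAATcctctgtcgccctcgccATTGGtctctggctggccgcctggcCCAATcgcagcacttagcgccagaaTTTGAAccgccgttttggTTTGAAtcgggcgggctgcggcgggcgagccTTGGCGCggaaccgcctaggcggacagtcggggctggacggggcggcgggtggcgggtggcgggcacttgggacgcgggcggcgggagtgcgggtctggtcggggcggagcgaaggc
Prc1 (chr7:80294201-80294500, plus strand): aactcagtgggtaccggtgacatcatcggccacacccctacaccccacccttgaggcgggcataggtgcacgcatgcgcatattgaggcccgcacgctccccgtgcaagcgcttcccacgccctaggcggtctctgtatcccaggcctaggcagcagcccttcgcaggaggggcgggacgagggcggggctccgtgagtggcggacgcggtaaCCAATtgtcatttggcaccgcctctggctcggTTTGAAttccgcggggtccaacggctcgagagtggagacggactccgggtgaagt
Top2a (chr11:99024140-99024439, minus strand): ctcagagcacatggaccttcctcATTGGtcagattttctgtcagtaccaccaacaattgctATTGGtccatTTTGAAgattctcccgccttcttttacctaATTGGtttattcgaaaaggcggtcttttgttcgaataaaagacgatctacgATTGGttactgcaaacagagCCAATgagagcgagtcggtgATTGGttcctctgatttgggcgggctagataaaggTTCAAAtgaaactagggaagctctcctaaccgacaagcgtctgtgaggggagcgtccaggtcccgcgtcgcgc
Cdca8 (chr4:124936868-124937167, minus strand): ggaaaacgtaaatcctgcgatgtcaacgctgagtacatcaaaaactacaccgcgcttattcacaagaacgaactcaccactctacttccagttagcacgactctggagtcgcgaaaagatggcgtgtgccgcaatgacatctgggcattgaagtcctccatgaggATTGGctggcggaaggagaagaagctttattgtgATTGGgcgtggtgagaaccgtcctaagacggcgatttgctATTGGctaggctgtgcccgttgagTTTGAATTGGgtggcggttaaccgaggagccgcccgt
Cenpe (chr3:135212313-135212612, plus strand): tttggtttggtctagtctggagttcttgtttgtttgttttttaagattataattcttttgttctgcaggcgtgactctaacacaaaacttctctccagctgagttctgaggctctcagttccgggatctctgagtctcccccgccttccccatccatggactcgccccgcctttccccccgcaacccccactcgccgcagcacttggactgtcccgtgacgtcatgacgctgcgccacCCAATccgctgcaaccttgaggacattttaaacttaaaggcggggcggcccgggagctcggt
Mcm6 (chr1:128359656-128359955, minus strand): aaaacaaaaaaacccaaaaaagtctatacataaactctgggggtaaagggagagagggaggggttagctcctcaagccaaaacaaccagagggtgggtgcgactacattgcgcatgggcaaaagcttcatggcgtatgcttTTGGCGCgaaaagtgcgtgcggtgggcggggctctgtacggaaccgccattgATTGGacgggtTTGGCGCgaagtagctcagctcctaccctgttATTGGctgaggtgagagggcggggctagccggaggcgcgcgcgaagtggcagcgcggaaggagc

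Of the 38 members 31 were in the table, 20 of them mitosis genes and 11 replication genes. A CCAAT match was in 18 of 20 mitosis promoters and 8 of 11 replication promoters, against 37.4% of 32851 promoters of the same length. TTTGAA was in 15 of 20 mitosis promoters and 1 of 11 replication promoters, against 17.9% of all. The same 15 mitosis promoters held both, against 6.95% of all promoters. Mki67, Prc1, Top2a and Cdca8 hold both, and Cenpe holds CCAAT but not TTTGAA in this window. TTCCCGC was in 0 of 20 mitosis and 3 of 11 replication promoters, against 4.6% of all, and TTGGCGC in 3 and 4, against 2.45%. Mcm6 holds TTGGCGC at 2 places, and Mki67 holds it at 1. A match is a description of letters and not a bound site.

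High-fat females 4 and 5 were low in some members and not in others. Both were below every chow female in 12 of 38 members, beside 28.5% of all genes, so the members' share of 31.6% was close to that of all genes. The 12 were Bub1, Kif11, Kif23, Nusap1, Prc1, Cenpe, Cenpf, Top2a, Mki67, Tk1, Mcm4 and Ccne2. Relative to the mean of high-fat females 1 to 3, Mki67 was at -4.98 and -4.57 log2 units in females 4 and 5, Kif11 at -2.76 and -4.32, and Cenpe at -3.25 and -3.63. Rrm1 was at -0.03 and 0.03, Pcna at -0.01 and -0.05, and Mcm2 at -0.13 and 0.16.

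Across the 38 members these ratios correlated with the GC content of the longest transcript at r = 0.51 in female 4 and 0.55 in female 5, and with the log2 length of that transcript at r = -0.56 and -0.46. Over 13487 genes the same correlations were 0.48 and 0.54 with GC content, and -0.30 in both with length. The points share 2 libraries and their depth, so these are descriptions. With a GC offset per library in the fit over all 19 libraries, 2 members were called in place of 1, and without females 4 and 5 that offset left the count at 23. The part of these library properties in the members' low levels was not tested beyond that offset.

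**Figure D5:**
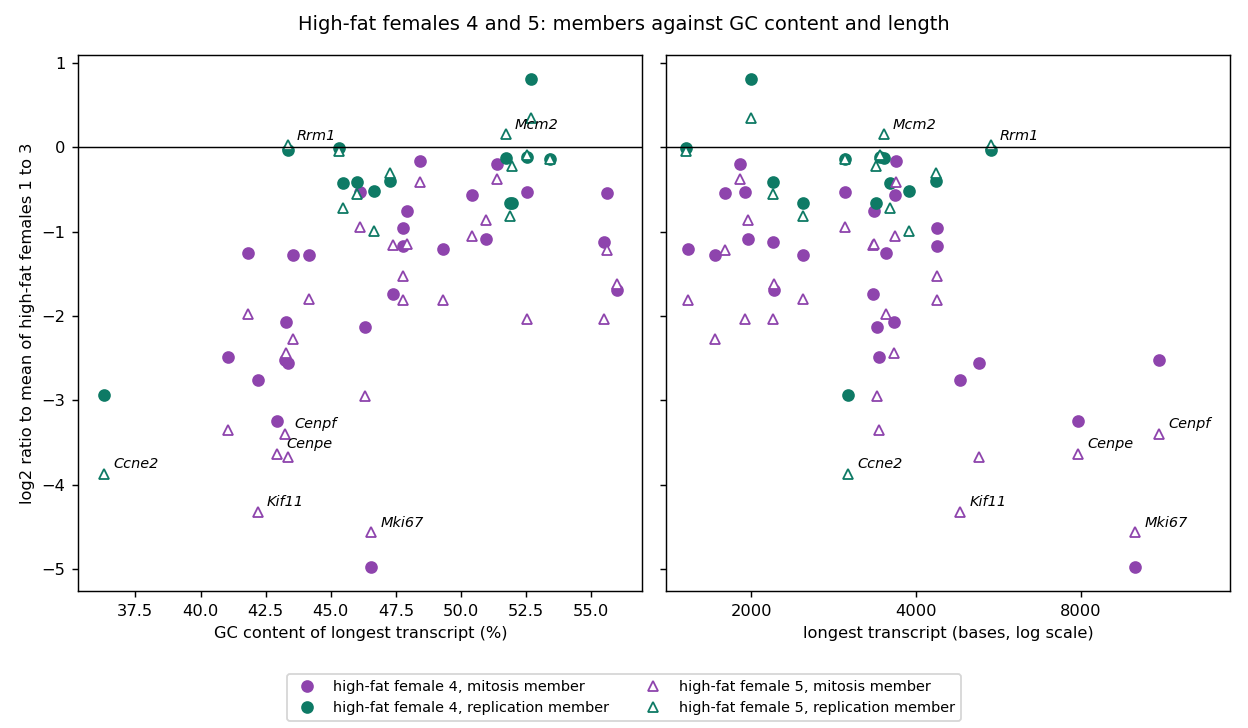
Log2 ratio of each member in high-fat females 4 (filled circles) and 5 (open triangles) to the mean of high-fat females 1 to 3 (vertical axes), against the GC content of its longest transcript (left) and the length of that transcript on a log axis (right). Mki67, Cenpe, Kif11 and Ccne2 lie at -2.76 or lower in both libraries, and Rrm1, Pcna and Mcm2 lie near 0.

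In males the only member to pass the test in either reading was Mcm2, a subunit of the replicative helicase. With all libraries edgeR called 0 of 38 members, higher or lower, beside 0.399% and 0.366% of all genes, and 1 member had an unadjusted p under 0.05, beside 1537 of 18051 genes. By DESeq2 the count was 1. With high-fat females 4 and 5 left out, which changes the shared spread, 1 member rose, beside 1.31% of all genes called higher and 1.31% called lower. The median log2 change of the members was 0.10 in both readings, 0.13 and 0.12 for the mitosis genes and 0.07 for the replication genes, where that of all genes was 0.00.

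In males Mcm2 had 11.2, 10.01, 11.9, 9.63 and 13.2 CPM on high-fat diet, against 8.31, 8.67, 7.69 and 9.47 CPM on chow. Every high-fat male exceeded every chow male in it, 1 of 38 members, beside 3.61% of all genes. Mcm2 was at 0.39 ± 0.10 with all libraries (adjusted p = 0.0926) and rose by 0.39 ± 0.09 without high-fat females 4 and 5 (adjusted p = 0.0298). That second call was lost without high-fat male 1, 3 or 5 or chow male 1, 2 or 3.

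In males Mki67 had 2.50, 1.99, 4.54, 3.70 and 4.10 CPM on high-fat diet, against 3.09, 3.46, 2.53 and 2.99 CPM on chow. In males Top2a had 3.16, 3.62, 6.62, 4.68 and 5.90 CPM on high-fat diet, against 5.63, 5.35, 3.29 and 3.72 CPM on chow. In males Prc1 had 3.42, 3.52, 6.51, 3.46 and 4.71 CPM on high-fat diet, against 4.06, 3.95, 3.13 and 2.86 CPM on chow. High-fat males 3 and 5 were the highest of the males in all of these, and in Mki67 high-fat males 1 and 2 were below every chow male. The mitosis median was 0.47 and 0.42 in high-fat males 3 and 5, against -0.13 to 0.15 in the other high-fat males and -0.04 to 0.22 in chow males. The changes were 0.15 ± 0.70 for Mki67, 0.09 ± 0.53 for Top2a and 0.31 ± 0.41 for Prc1.

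In males Ccnb1 had 0.574, 0.523, 1.12, 0.592 and 0.878 CPM on high-fat diet, against 0.616, 0.417, 0.395 and 0.694 CPM on chow. In males Ccnb2 had 0.900, 0.608, 1.07, 0.574 and 1.06 CPM on high-fat diet, against 0.977, 0.709, 0.515 and 0.721 CPM on chow. In males Cdc20 had 1.38, 0.763, 1.49, 1.52 and 1.07 CPM on high-fat diet, against 0.937, 1.18, 1.11 and 1.88 CPM on chow. The groups overlapped, and high-fat males 3 and 5 were the highest males in both cyclins but not in Cdc20. In males Ube2c had 0.782, 0.721, 1.68, 0.807 and 1.33 CPM on high-fat diet, against 0.803, 0.570, 0.719 and 1.20 CPM on chow. In males Tpx2 had 1.77, 1.37, 2.53, 1.65 and 2.68 CPM on high-fat diet, against 1.81, 2.17, 1.56 and 2.27 CPM on chow. The groups overlapped here as well, again with high-fat males 3 and 5 the highest. The changes of these 5 genes lay between -0.04 for Cdc20 and 0.47 for Ccnb1, none called.

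In males Tyms had 2.66, 2.77, 2.09, 2.42 and 2.52 CPM on high-fat diet, against 2.61, 3.02, 2.62 and 2.38 CPM on chow. In males Rrm2 had 2.53, 2.15, 3.29, 2.82 and 3.33 CPM on high-fat diet, against 2.30, 2.81, 2.35 and 1.99 CPM on chow. In males Mcm3 had 6.34, 5.99, 7.66, 6.85 and 7.33 CPM on high-fat diet, against 7.11, 6.14, 7.02 and 5.57 CPM on chow. In these the groups overlapped. In males Mcm5 had 3.30, 2.73, 3.93, 3.89 and 4.03 CPM on high-fat diet, against 3.68, 3.25, 3.78 and 4.23 CPM on chow. In males Mcm6 had 8.67, 9.91, 9.95, 8.75 and 9.36 CPM on high-fat diet, against 8.85, 8.56, 9.07 and 9.18 CPM on chow. In males Mcm7 had 16.9, 16.9, 15.8, 18.9 and 16.6 CPM on high-fat diet, against 16.9, 13.5, 14.001 and 16.6 CPM on chow. Here too the groups overlapped. In males Ccne1 had 0.717, 0.692, 1.10, 0.933 and 0.813 CPM on high-fat diet, against 1.02, 0.653, 0.383 and 1.21 CPM on chow. In males Ccne2 had 3.78, 2.996, 4.27, 3.77 and 3.45 CPM on high-fat diet, against 3.13, 3.99, 3.75 and 3.96 CPM on chow. The high-fat males of Ccne1 all lay within the chow range, and no change in these 8 genes was called.

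Whether the diet changed the members differently in females and males was tested by the interaction of diet and sex. edgeR called 0 of 38 members with all libraries and 0 without high-fat females 4 and 5, beside 0.0% of all genes in either direction. At an unadjusted p under 0.05 there were 4 members of 38 and 1837 of 18051 genes with all libraries, and 22 of 38 and 2024 of 18279 without females 4 and 5. DESeq2 called 0 with all libraries and 6 of 26 members it could adjust without females 4 and 5. Over all genes, the alternative settings without females 4 and 5, DESeq2 among them, gave 0 to 162 interaction calls. The smallest p was that of Mki67, at 1.44 ± 0.27 (adjusted p = 0.0844), followed by Tpx2 at 1.45 ± 0.32 (adjusted p = 0.109). All 25 mitosis genes had a positive interaction without females 4 and 5, beside 8776 of 18279 genes. The median of the mitosis genes was 0.94, against 0.11 for the replication genes and -0.01 for all genes. A call in females and none in males is thus not shown to be a difference between the sexes by edgeR.

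Females and males were also compared within each diet. On high-fat diet 6 of 38 members were higher in females with all libraries, beside 6.40% of all genes called higher and 3.94% called lower, and 0 were lower. These were Mcm5 at 0.79 ± 0.14, Cdc20 at 1.07 ± 0.30, Mcm6 at 0.44 ± 0.09, Mcm3 at 0.42 ± 0.10, Mcm7 at 0.33 ± 0.08 and Mcm2 at 0.31 ± 0.09, with adjusted p from 0.00257 to 0.0451. Mcm3, Mcm5, Mcm6 and Mcm7 kept that call with each library left out, while Cdc20 lost it without high-fat female 2 or 3 or high-fat male 1, 2, 3 or 5. Mcm2 lost it in 13 of 19 such fits and without females 4 and 5. Mcm5 of all 5 high-fat females, at 4.31 to 7.52 CPM, lay above all 5 high-fat males, at 2.73 to 4.03 CPM. The same held for Mcm3, Mcm6 and Mcm7, 4 of 38 members in all, beside 4.80% of all genes. For females 1 to 3 alone it held for 25 members, 17 of mitosis and 8 of replication, beside 8.79% of all genes. Without females 4 and 5, 24 members were higher and 0 lower, beside 4.80% and 5.59% of all genes, 18 mitosis and 6 replication genes. Mki67 was higher by 1.05 ± 0.19 and Top2a by 1.06 ± 0.23 there (adjusted p = 0.00187 and 0.00632), against 0.34 ± 0.65 and 0.43 ± 0.50 with all libraries, where neither was called. Leaving out female 2 as well gave 9 calls, and leaving out female 3 gave 13. Over all genes, leaving out 1 further library gave 602 to 2051 calls in place of 1900.

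On chow, 1 of 38 members was higher in females with all libraries, beside 1.73% of all genes called higher and 1.49% called lower, and 0 were lower. It was Mcm7, at 21.6, 18.8, 17.6, 19.8 and 21.7 CPM in chow females, against 16.9, 13.5, 14.001 and 16.6 CPM in chow males, a difference of 0.38 ± 0.08 (adjusted p = 0.0141). Every chow female was above every chow male in Mcm7, Mcm6 and Pcna, 3 of 38 members, beside 5.65% of all genes. That call was lost without chow male 2 or chow male 3. Without high-fat females 4 and 5 the calls were Mcm7, Mcm4 at 0.31 ± 0.09 and Pcna at 0.20 ± 0.06, beside 4.75% of all genes called higher and 5.70% called lower. With all libraries Mcm2 to Mcm7 and Pcna were all positive on chow, with a median of 0.27, beside 9422 of 18051 genes. Of 25 mitosis genes 10 were positive, with a median of -0.11. The sex comparisons share the high-fat and chow groups with the diet comparisons.

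Other genes of the cycle, 144 in 5 lists that hold no member, were counted in the same fits. For diet in females 2.46% of all genes rose and 2.68% fell without females 4 and 5, against 1.67% and 0.864% with all libraries. Of 62 further mitosis genes 31 rose and 1 fell in high-fat females without females 4 and 5, with a median of 0.90, against 2 higher and 0 lower with all libraries, with a median of 0.49. The gene that fell was Pttg1 (securin), at -0.22 ± 0.04. Without females 4 and 5 the 6 with the smallest p were Aspm, a spindle pole protein, at 1.34 ± 0.19, Racgap1 and Iqgap3 at 1.10 ± 0.17 and 1.47 ± 0.23, Spag5 at 1.47 ± 0.23, Hmmr at 1.75 ± 0.30 and Pimreg at 1.28 ± 0.24. With all libraries the calls were Ncapd2, a condensin subunit, at 0.26 ± 0.05 and Stmn1 (stathmin) at 0.41 ± 0.10. Of 36 further replication genes 3 rose and 1 fell without females 4 and 5, with a median of 0.03: Uhrf1 at 1.05 ± 0.27, Exo1 at 1.89 ± 0.50 and the loader Cdc6 at 0.92 ± 0.27 were higher, and Gmnn (geminin) was at -0.25 ± 0.07. With all libraries 0 of the 36 were called by edgeR, with 7 at an unadjusted p under 0.05, a share close to the 3390 of 18051 genes.

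Of 17 transcription factors of the cycle 3 rose without females 4 and 5, and 0 with all libraries, where 4 had an unadjusted p under 0.05, beside 3390 of 18051 genes. Mybl2 (B-Myb), also in this list, was not called in females in either reading. Foxm1 had 1.36, 3.06, 1.74, 1.20 and 0.773 CPM in high-fat females 1 to 5, against 0.576, 0.762, 1.02, 0.869 and 1.13 CPM in chow females. It was above every chow female in females 1 to 4, and its change was 1.24 ± 0.23 without females 4 and 5 (adjusted p = 0.00422) and 0.90 ± 0.27 with them (adjusted p = 0.0838). E2f2 and E2f8 rose by 1.21 ± 0.28 and 0.62 ± 0.18 without females 4 and 5. Of 10 G1 kinases and cyclins 2 rose there, beside 2.46% of all genes, and 0 with all libraries. They were Cdk6 at 0.47 ± 0.10 and Ccnd1 (cyclin D1) at 0.39 ± 0.10. Cdk6 also rose in males in that reading, by 0.62 ± 0.09 (adjusted p = 0.000471), as did Gadd45a among the inhibitors by 0.30 ± 0.07, while Spc24, a kinetochore protein, was lower at -0.48 ± 0.12. These were the only calls in males in the 5 lists of 144 genes, beside 1.31% of all genes called higher and 1.31% called lower. With all libraries no gene of the 5 lists was called in males, beside 0.399% and 0.366% of all genes. Cdk6 was at 0.62 ± 0.18 (adjusted p = 0.164), Gadd45a at 0.30 ± 0.08 (adjusted p = 0.116) and Spc24 at -0.48 ± 0.12 (adjusted p = 0.093).

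Of 19 inhibitors of proliferation 1 rose and 1 fell in females without females 4 and 5, beside 2.46% and 2.68% of all genes. Rbl1 (p107) was at 0.46 ± 0.13 and Btg2 at -0.49 ± 0.14, and Btg2 also fell with all libraries, at -0.49 ± 0.13. Between the sexes, 2 of the 19 inhibitors were higher in females and 1 lower on each diet, with all libraries. Over all genes 6.40% were called higher and 3.94% lower on high-fat diet, and 1.73% and 1.49% on chow. Cdkn2c and Cdkn2d were higher on high-fat diet, by 0.45 ± 0.10 and 0.30 ± 0.08. Gadd45a and Btg2 were higher on chow, by 0.39 ± 0.08 and 0.51 ± 0.13. Cdkn1a (p21), an inhibitor of cyclin-dependent kinases, was the 1 that was lower on both diets. It had 11.2, 9.05, 10.8, 11.7 and 14.4 CPM in high-fat females, against 28.4, 25.6, 33.4, 37.5 and 39.96 CPM in high-fat males, with no overlap. The difference was -1.53 ± 0.27 (adjusted p = 0.00199) on high-fat diet and -1.15 ± 0.28 (adjusted p = 0.0283) on chow, with all libraries. On chow Cdkn1a had 7.14, 6.49, 17.4, 10.7 and 19.3 CPM in females, against 19.3, 34.6, 21.97 and 32.4 CPM in males, and chow female 5 was just below chow male 1. The phosphatase Cdc25b, which activates Cdk1, was higher in females on both diets, by 0.88 ± 0.14 on high-fat diet and 1.04 ± 0.15 on chow. With all libraries on high-fat diet, 6 of 62 further mitosis genes, Cdc25b included, and 4 of 36 further replication genes were higher. Of 10 G1 kinases and cyclins 3 were higher and 1, Ccnh, was lower, and of 17 transcription factors 2, E2f3 and Tfdp2, were lower. On chow Cdc25b, Pole and Cdk4 were the only calls outside the inhibitors, all higher.

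Markers of several cell types differed between the same female libraries. Of 16 erythroid markers 9 were tested, and without females 4 and 5, 6 of them rose and 1 fell, against 1 and 0 with all libraries. The shares of all genes that rose and fell were 2.46% and 2.68%, against 1.67% and 0.864% with all libraries. Hbb-bs, Hba-a1, Hbb-bt, Alas2 and Slc4a1 rose by 0.59 ± 0.10, 0.61 ± 0.11, 0.65 ± 0.13, 0.81 ± 0.15 and 2.17 ± 0.39, and Rhd fell, at -0.38 ± 0.09. The 15 with counts summed to 366 to 425 CPM in high-fat females 1 to 3, 227 and 396 CPM in females 4 and 5, 242 to 306 CPM in chow females, 293 to 424 CPM in high-fat males and 280 to 343 CPM in chow males. Hbb-bs had 212.2, 246.4, 244.4, 132.2 and 224.96 CPM in high-fat females 1 to 5, against 139.6, 157.99, 151.4, 148.8 and 177.03 CPM in chow females, and females 1 to 3 were above all chow females. The erythroid factors Gata1 and Klf1 stayed at or under 0.101 and 0.167 CPM in every library, and Ahsp was not matched.

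The calls in the marker lists below stand beside 2.46% of all genes called higher and 2.68% called lower without females 4 and 5. With all libraries these shares were 1.67% and 0.864%. Without females 4 and 5, of 15 endothelial markers 4 rose, with sums of 1565 to 1687 CPM in high-fat females 1 to 3, 1587 and 1677 CPM in females 4 and 5, and 1391 to 1519 CPM in chow females, and 4 also rose with all libraries. Cdh5, Tie1 and Pecam1 rose in both readings, at 0.30 ± 0.06, 0.25 ± 0.06 and 0.15 ± 0.04 without females 4 and 5. Of 12 fibroblast markers 3 rose, with sums of 3201 to 3653 CPM in females 1 to 3, 3974 and 3965 CPM in females 4 and 5, and 2769 to 3119 CPM in chow females, and 4 rose with all libraries. Col3a1, Col1a2 and Col1a1 rose by 0.62 ± 0.07, 0.45 ± 0.06 and 0.49 ± 0.07 without females 4 and 5. Of 14 macrophage markers 1 rose, Ccr2 by 0.96 ± 0.24, with sums of 216 to 232 CPM in females 1 to 3, 210 and 195 CPM in females 4 and 5, and 191 to 241 CPM in chow females. Of 10 cardiomyocyte markers 6 fell, with sums of 102001 to 108670 CPM in females 1 to 3, 118420 and 120919 CPM in females 4 and 5, and 113756 to 121602 CPM in chow females. The 6 were Myl3, Myl2, Nppa, Tnni3, Tnnt2 and Pln, and with all libraries Nppa and Tnnt2 fell. Of 10 mural markers 1 rose, Notch3 by 0.26 ± 0.07. No T-cell marker of 7 tested, B-cell marker of 8, neutrophil marker of 3, mesothelial marker of 6, adipocyte marker of 7 or Schwann cell marker of 5 was called, and the part of these cell types in the members' levels was not tested. Rag2 and Ms4a3 were at 0 in every library. T-cell sums were 1.83 to 2.65 CPM in females 1 to 3, 3.01 and 2.15 CPM in females 4 and 5, and 1.44 to 2.95 CPM in chow females. B-cell sums were 23.1 to 24.9 CPM in females 1 to 3, 8.59 and 7.63 CPM in females 4 and 5, and 17.7 to 23.7 CPM in chow females. Such a sum follows the markers with the most counts. With all libraries 6 of the 8 tested B-cell markers had a positive change in high-fat females, with a median of 0.11, within -0.28 to 0.70.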

How the data were processed

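The measurement was polyA RNA sequencing of mouse hearts, and the deposited values are whole-number counts, per the file headers 1 value for each of 425461 exon pieces in 19 files and 1 value per gene in the file of chow male 4. Per the submitters' processing notes, the build was GRCm39 and the tools Salmon 1.5.1 and DESeq2 1.32.0, while the coordinates of 43636 of 48969 genes in the files equal those of a GRCm38 annotation. Whether reads were counted by strand is not given in the sources used here. Counts were summed per gene ID. Of 33309 pieces with joined IDs, 27970 were given to 1 gene and 5339, with 1.17% to 1.30% of counts, were not used.

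The 4 groups were fitted in 1 model with edgeR 4.0.16 (R 4.3.3, limma 3.58.1), with TMM scaling, edgeR's default filter on low counts and the quasi-likelihood test. It tested 18051 genes with 19 libraries and 18279 without high-fat females 4 and 5. Every adjusted p is Benjamini-Hochberg adjusted over all genes tested, and a gene was called at an adjusted p under 0.05. Changes are log2 with their SE. A count of 3, the floor used for a gene at 0, equalled 0.0359 to 0.0538 CPM, and covers counting error only. DESeq2 1.42.0, other filters, scalings, exon pieces and sample sets were tried as alternatives.

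All 38 members were named with their roles. Values in every library were given for members called with all libraries and for the 2 members of each role with the smallest p in the diet comparison of females 1 to 3, and for some others chosen after their values were seen. Of each other list, up to 6 called genes with the smallest p were to be named, and for the sex comparisons not all of these were. The members and lists were chosen with earlier results of these data known. The free-piece fits, and those on the largest exon piece, with the replicate block, with DESeq2 or with only the groups compared that also leave out females 4 and 5, were chosen after seeing the data.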

Additional observations from a re-analysis of the deposited data

Results flagged for a closer look

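In 5 of 152 groups of 4 or 5 libraries, 1 library lay far from the others of its group by Dixon's test, and chance alone gives about 1 in 20. Chow female 3 was the highest chow female in Ccnb2 at 1.42 CPM, in Aurkb at 1.37 CPM and in Bub1b at 3.35 CPM. High-fat male 3 was the highest high-fat male in Cenpf at 23.9 CPM. High-fat male 2 was the lowest high-fat male in Pbk at 0.0283 CPM, which is under the floor of 3 counts.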

How the results depend on the processing

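With all libraries, 1 member was called for diet in females, and the count became 23 without high-fat females 4 and 5, 6 by DESeq2, 0 with only the groups compared, 2 with a GC offset, 0 of 21 on the largest exon piece and 2 on pieces that overlap no other gene. For diet in males 0 were called, but 1 without high-fat females 4 and 5, 1 by DESeq2 and 1 with only the groups compared. For sex on high-fat diet 6 were called, and 24 without high-fat females 4 and 5, 2 with only the groups compared and 1 on the largest piece. For sex on chow 1 was called, and 3, 2 and 0 under the same settings in that order. The interaction gave 0 under every setting with all libraries.

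Without high-fat females 4 and 5, the largest exon piece gave 2 of 22 for diet in females in place of 23, 0 for diet in males in place of 1, 4 for sex on high-fat diet in place of 24 and 0 for sex on chow in place of 3. DESeq2 gave 6 for the interaction in place of 0 and 6 for sex on chow in place of 3, and a GC offset gave 5 for sex on chow. On the largest piece Kif20a turned to -0.046 for diet in females and -0.030 for sex on high-fat diet, and Rrm2 to -0.056 for sex on high-fat diet. The smaller number of members tested follows from the fewer counts of 1 piece, and the other causes were not tested.

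Leaving out 1 library at a time, diet in females gave 0 to 3 calls with all libraries and 8 to 27 without high-fat females 4 and 5, and diet in males 0 to 0 and 0 to 1. Sex on high-fat diet gave 4 to 7 and 9 to 25, and sex on chow 0 to 1 and 1 to 6. Of 951 changes of single called members with a library left out, 822 stayed called and 129 did not, and of 347 under other settings 284 stayed, 60 did not and 3 reversed.

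Same-numbered samples deviated from their group means together with r from -0.06 to 0.14 over all genes. The mean of the high-fat females included females 4 and 5, so the values of the comparisons that use it cannot exclude that the numbers pair the samples. Diet in males and sex on chow use no high-fat female, and r there was -0.06 to 0.07. With 4 chow males these values cannot exclude a pairing either. With the replicate block 1, 0, 0, 5 and 1 members were called for diet in females, diet in males, the interaction, sex on high-fat diet and sex on chow, and 19 for diet in females without high-fat females 4 and 5.

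Over all genes, diet in females gave 458 calls with all libraries, between 21 and 1000 under the alternatives, and 939 without high-fat females 4 and 5, between 242 and 1636. The interaction gave 0 in both readings, between 0 and 60 under the alternatives with all libraries and between 0 and 162 without high-fat females 4 and 5.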
